A study of Mus musculus with 4 samples.

Results

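Collagen genes were followed across the cell types of the mouse ovary. All genes whose symbol has the form Col, number, a, number (for example Col4a1) and which held at least 100 unique molecular identifiers (UMIs, each counting 1 captured RNA molecule) over 4 single-cell libraries were taken. This gave 41 members of 44 genes with such a symbol, among 32285 genes counted. The 3 left out were Col10a1, Col2a1 and Col9a1 with 51, 47 and 21 UMIs, and the members with the fewest UMIs were Col17a1 with 236 and Col9a3 with 423. The highest totals were 245139 UMIs for Col3a1, 218233 for Col1a2, 154439 for Col4a1 and 126155 for Col1a1. The libraries were made with a Chromium 3′ kit from whole ovaries of female mice aged 8 weeks on a C57BL/6J background, taken in estrus and born in the same litter. A pair of libraries came from Fosl2flox/flox mice (Fosl2F/F, the controls, which carry LoxP sites around exons of Fosl2 but no Cre). The other pair came from Cyp19a1-Cre; Fosl2flox/flox mice (Fosl2cKO). Here the promoter of Cyp19a1, the aromatase gene, drives Cre recombinase in granulosa cells (GCs), the targeted cells. Stroma and vessels were not targeted, and whether luteal cells carried the recombined gene was not tested. Fosl2 is an AP-1 transcription factor, and the question was how its loss from GCs changes the cells of the ovary.

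Collagens are secreted proteins of 3 chains wound into a triple helix, and the genome encodes many chains that combine only in set partnerships. Fibrillar collagens build the cables of connective tissue, type IV collagens form the sheet-like network of basement membranes, and type VI collagens form beaded filaments between the 2 structures. In the ovary a basement membrane encloses each follicle and separates GCs from the theca, which has its own vessels, while the stroma between follicles is rich in fibrils.

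The 4 libraries held 120327227 to 148836173 UMIs, and 6760 to 19575 cells each were kept after filters and removal of doublets. Fosl2F/F 2 stood apart, with 19575 cells of a median of 3655 UMIs, against 6760 to 8150 cells and medians of 11177 to 12465 UMIs in the other libraries. Of its cells, 4723 were removed as doublets, against 412 to 614 elsewhere. Pairs of libraries shared 10 to 38 cell barcodes, at most 0.518% of the smaller library. Fosl2 itself had 161, 167, 167 and 115 CPM (UMIs per 1000000 UMIs of the class) in GC-like cells of Fosl2F/F 1, Fosl2F/F 2, Fosl2cKO 1 and Fosl2cKO 2. This is the order of libraries in all sentences below that give 4 values. Fosl2cKO 1 was therefore no lower than the controls in the targeted cells, the 3′ counts do not separate exons, and both libraries are called by their label. Cells were clustered without any collagen gene among the clustering features and named from marker genes, which gave 15764 GC-like, 6330 stromal-like, 2037 luteal-like, 1123 blood endothelial-like, 327 lymphatic endothelial-like, 1079 pericyte or smooth muscle-like and 688 epithelial-like cells, with 1310 macrophage-like, 922 NK or T-like, 424 dendritic-like and 145 B lymphocyte-like cells. Theca-like cells were kept as 2 sets, 5070 cells led by Enpep and 1393 with Cyp17a1, the enzyme that makes androgens. Cluster Abcb1b Hao2 (3651 cells, scored nearest to luteal cells) and cluster Myh11 (1074 cells with Tagln, Acta2 and Cnn1 of smooth muscle, but without a lead for any class) were described by their leading genes. The limits of these splits were chosen after the clusters had been seen. Oocyte-like cells were too few for the comparisons.

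Collagen RNA was spread unevenly over the ovary. UMIs of all members together came to 6652, 12052, 10004 and 10019.6 CPM in pericyte or smooth muscle-like cells, with a mean of 9682 ± 2237 CPM (SD, n = 4 libraries, as for all means below). Theca-like Enpep cells had 8646 ± 845 CPM, stromal-like cells 8085 ± 1822 CPM and Myh11 cells 6667 ± 1179 CPM. The libraries of these 4 classes overlapped, and their order is not set beyond the spread. Blood endothelial-like cells followed with 3419.8 ± 529 CPM, theca-like Cyp17a1 cells with 2890.1 ± 493 CPM, epithelial-like cells with 2054 ± 86.2 CPM and lymphatic endothelial-like cells with 1293 ± 222 CPM. Every library of the 4 leading classes was above every library of these. Abcb1b Hao2 cells had 917 ± 186 CPM, luteal-like cells 813 ± 290.1 CPM and GC-like cells 522 ± 77.2 CPM. NK or T-like cells had 567 ± 235 CPM and B lymphocyte-like cells 469 ± 209 CPM, and the libraries of GC-like cells overlapped with both. With doublets kept these last 2 sums were 1595 and 1807 CPM. Macrophage-like and dendritic-like cells had the lowest sums, 221 ± 53.2 and 148 ± 59.5 CPM. With doublets kept their sums were 863 and 623 CPM, against 686 CPM in GC-like cells. Classes were defined by clustering the same cells, so these levels are a description without a test. A UMI counts the 3′ end of 1 transcript, so levels of different genes were not divided by length.

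**Figure D1:**
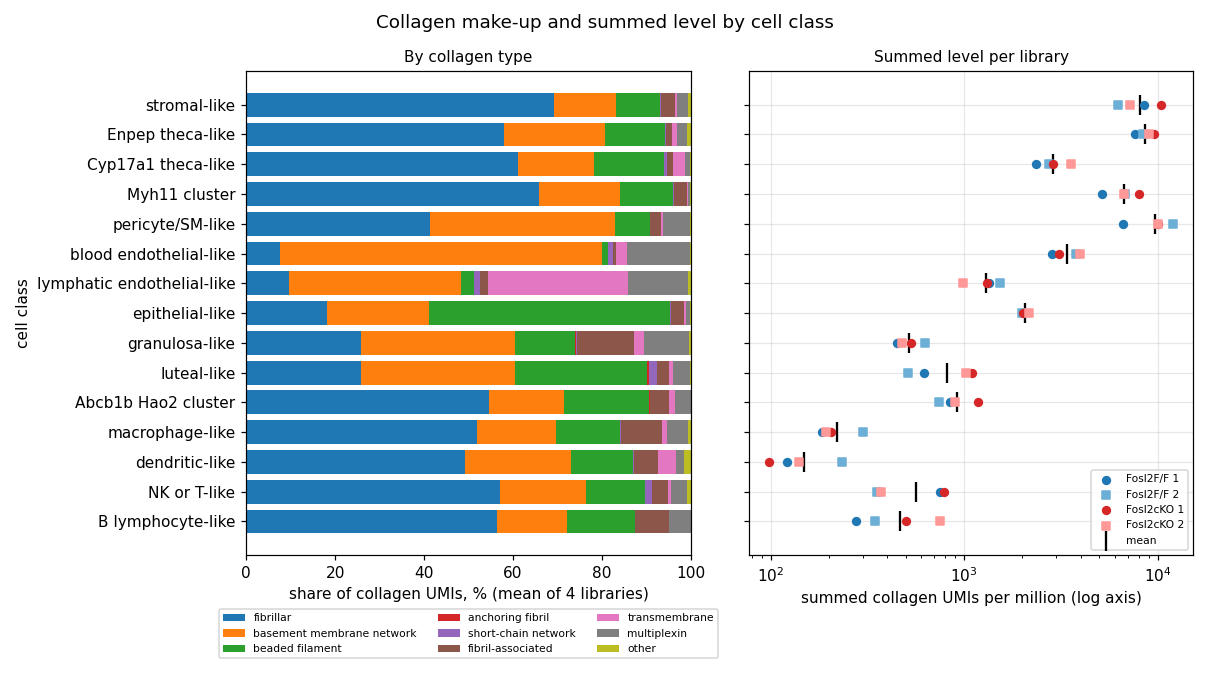
Left, the share of a class's collagen UMIs (percent, mean of 4 libraries) that fell to each type of collagen, for each cell class. Right, summed CPM of the 41 members in each library on a log axis (Fosl2F/F and Fosl2cKO by colour), from 148 CPM on average in dendritic-like cells to 9682 CPM in pericyte or smooth muscle-like cells.

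Classes also differed in the types of collagen they held. Fibrillar collagens made up 69.2 ± 6.10% of the collagen UMIs of stromal-like cells, 65.8 ± 3.50% in Myh11 cells, 61.2 ± 4.87% in theca-like Cyp17a1 cells and 57.9 ± 3.74% in theca-like Enpep cells. Basement membrane chains made up 72.3 ± 3.21% in blood endothelial-like cells, and fibrillar chains only 7.63 ± 1.90%. Pericyte or smooth muscle-like cells held both, with 41.4 ± 4.15% fibrillar and 41.6 ± 4.78% basement membrane chains. In epithelial-like cells 54.2 ± 4.10% fell to the beaded filament chains of type VI. In lymphatic endothelial-like cells 31.5 ± 9.34% fell to transmembrane collagens. GC-like cells divided their few collagen UMIs among basement membrane (34.5 ± 5.45%), fibrillar (25.9 ± 3.41%), beaded filament (13.6 ± 2.10%), fibril-associated (12.8 ± 3.50%) and multiplexin chains (10.1 ± 3.05%).

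**Figure D2:**
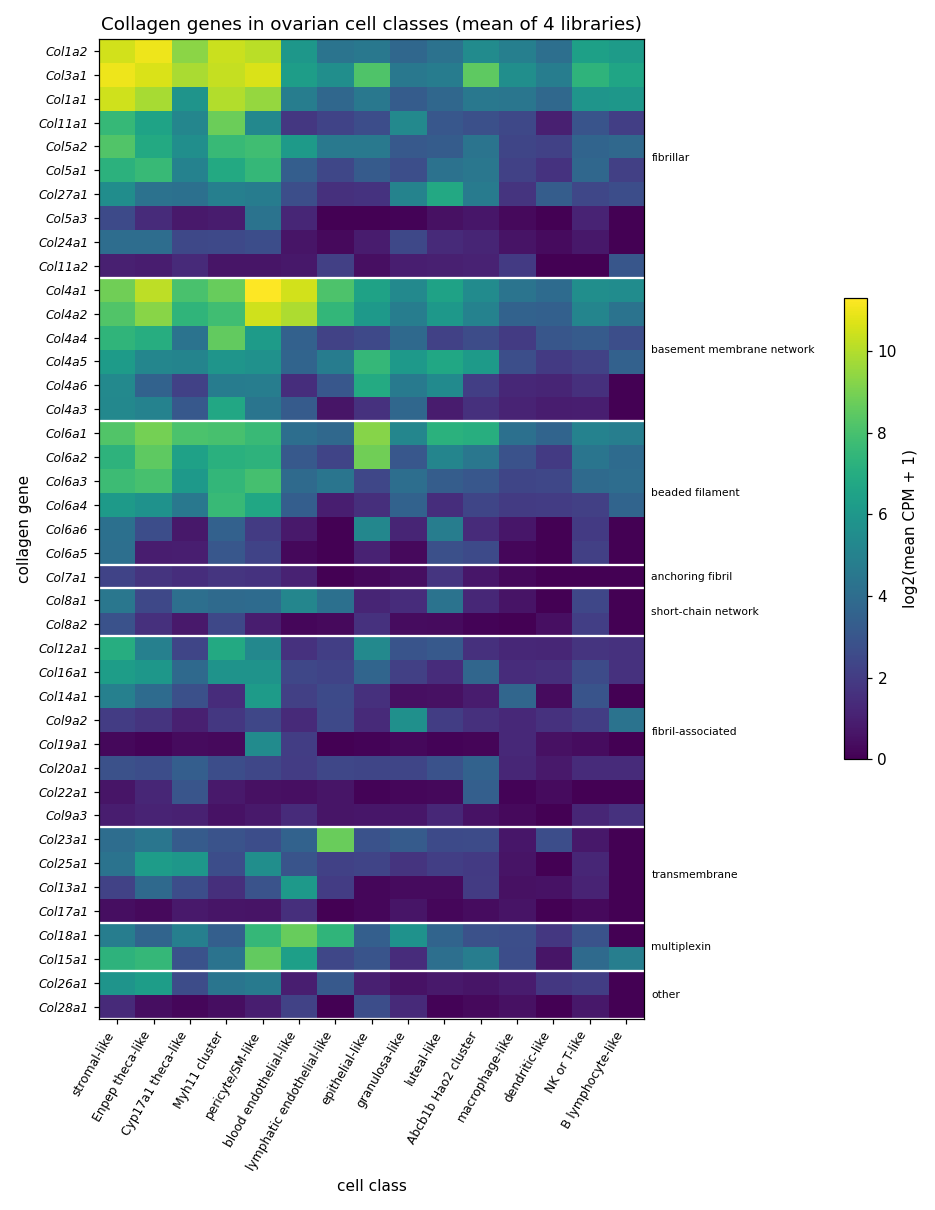
Heat map of the mean level of the 41 members (rows, grouped by type of collagen) in 15 cell classes (columns), as log2(mean CPM + 1) over 4 libraries. Col23a1 in lymphatic endothelial-like cells (413 CPM) and Col19a1 in pericyte or smooth muscle-like cells (43.0 CPM) stand out from the other classes of their rows.

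Each member was assigned to the class with its highest mean among the 15 classes that had at least 20 cells in every library. Stromal-like cells led for 9 members, pericyte or smooth muscle-like and epithelial-like cells for 6 each, theca-like Enpep cells for 5, and Myh11 and blood endothelial-like cells for 4 each. In 21 of 41 members the same class was highest in all 4 libraries, and in 12 its lowest library was above the highest library of the next class. Not one of the 9 members led by stromal-like cells was highest there in all 4 libraries, whereas all 6 of the pericyte or smooth muscle-like cells were, and 5 of 6 of the epithelial-like cells.

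Among the fibrillar collagens, Col1a1 and Col1a2 encode the 2 chains of type I collagen and Col3a1 the chain of type III, the fibrils of most soft tissues. Col3a1 (ENSMUSG00000026043) had 2262, 1373, 3194 and 1311 CPM in stromal-like cells and 1119.8, 2069, 1816 and 1549 CPM in pericyte or smooth muscle-like cells. Stromal-like cells were thus highest in 2 libraries only, and both classes overlapped with theca-like Enpep cells (1599 ± 147 CPM). Col1a2 (ENSMUSG00000029661) was highest in theca-like Enpep cells in every library, with 2066, 1842, 2054 and 2254 CPM against 1597, 973, 1916 and 1483 CPM in stromal-like cells. Col1a1 (ENSMUSG00000001506) had the reverse order, 1651, 1025, 2001 and 1052 CPM in stromal-like cells against 806, 820.0, 1266 and 728 CPM in theca-like Enpep cells, with the stromal value above the theca value in 4 of 4 libraries. Both chains were detected in Myh11 cells, with 1346 ± 238 CPM of Col1a2 and 1034 ± 307 CPM of Col1a1. In theca-like Cyp17a1 cells Col3a1 had 920.3 ± 189 CPM and Col1a2 653 ± 195 CPM. In Abcb1b Hao2 cells Col3a1 was the highest member, with 364 ± 102 CPM.

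Type V collagen starts fibrils of type I, and its chains Col5a2 and Col5a1 had 302 ± 44.8 CPM in stromal-like and 195 ± 31.3 CPM in theca-like Enpep cells, their highest classes. Col5a3, its rarer chain, had 8.91, 31.8, 14.9 and 20.2 CPM in pericyte or smooth muscle-like cells, 3.91 times the mean of the next class. Col11a1 (ENSMUSG00000027966), a chain of the type XI collagen that starts fibrils in cartilage, followed another pattern. It had 367, 446, 345 and 578 CPM in Myh11 cells and 180.2, 181, 147 and 259 CPM in stromal-like cells, with no overlap between the classes and a ratio of 2.26. Col27a1 was highest in luteal-like cells, with 69.3, 73.0, 67.8 and 233 CPM, a mean that rested mostly on Fosl2cKO 2, and the next class reached 45.8 ± 5.68 CPM. Col24a1 had 15.5 ± 4.82 CPM in stromal-like and 15.4 ± 6.24 CPM in theca-like Enpep cells, which cannot be ranked. Col11a2 stayed under 10 CPM in the mean of each of the 15 classes.

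Bases before the start of 3 members that set classes or GC states apart are shown here, from RefSeq on GRCm38.p6, 5′ to 3′ on the strand of the gene. Capitals mark matches to CCAAT or the GC box GGGCGG on either strand. Col11a1 (chr3:114030540-114220718, plus strand) follows chr3:114030290-114030539, Col18a1 (chr10:77052178-77166548, minus strand) follows chr10:77166549-77166780 on that strand, and Col23a1 (chr11:51289920-51583918, plus strand) follows chr11:51289670-51289919.
Col11a1: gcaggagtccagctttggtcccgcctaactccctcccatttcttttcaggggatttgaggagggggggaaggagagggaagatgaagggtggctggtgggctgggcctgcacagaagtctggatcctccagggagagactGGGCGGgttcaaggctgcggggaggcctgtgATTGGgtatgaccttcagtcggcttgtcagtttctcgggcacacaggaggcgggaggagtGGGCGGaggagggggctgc
Col18a1: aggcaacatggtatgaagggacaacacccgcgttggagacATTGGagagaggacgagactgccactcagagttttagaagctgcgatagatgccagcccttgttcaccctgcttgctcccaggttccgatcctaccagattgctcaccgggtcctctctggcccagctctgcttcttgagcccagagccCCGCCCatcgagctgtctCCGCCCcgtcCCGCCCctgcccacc
Col23a1: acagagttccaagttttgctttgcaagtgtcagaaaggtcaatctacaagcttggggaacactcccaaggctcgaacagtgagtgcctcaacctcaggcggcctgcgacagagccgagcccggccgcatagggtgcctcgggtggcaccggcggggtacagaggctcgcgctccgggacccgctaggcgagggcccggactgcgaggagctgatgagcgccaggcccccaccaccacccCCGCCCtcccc

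Windows of 300 bases around a RefSeq start were found for 33 of 41 members. Of their 35 windows, 5 lay over 250 bases from the start of the gene in GENCODE M21, those of Col11a2, Col1a2, Col25a1 and Col27a1 and 1 of Col18a1. The AP-1 letters TGANTCA were in 1 of 33 (Col6a1), 3.03% against 8.97% of all 27025 genes with such a window. CCAAT was in 12 of 33 (36.4% against 41.1%), TATAA in 5 (15.2% against 28.0%) and GGGCGG in 22 (66.7% against 38.2%). Both strands were searched and overlaps between motifs were not removed. A match is a run of letters and was not tested as a binding site.

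Type IV collagen is the network of basement membranes, and its 6 chains are encoded by 3 pairs of genes. Col4a1 and Col4a2, the chains of nearly all basement membranes, were highest in pericyte or smooth muscle-like cells in every library. Col4a1 (ENSMUSG00000031502) had 1461, 3386, 2340.1 and 2873 CPM there and 1171, 1615, 1406 and 1753 CPM in blood endothelial-like cells, and Col4a2 1411 ± 475 and 958 ± 178 CPM. The libraries of the 2 vessel classes overlapped, because Fosl2F/F 1 was low in pericyte or smooth muscle-like cells. Theca-like Enpep cells had 1151 ± 262 CPM of Col4a1, above stromal-like cells (461 ± 47.8 CPM) in every library.

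Col4a3 and Col4a4, known with Col4a5 from the filtration membrane of the kidney, were highest in Myh11 cells. Col4a4 (ENSMUSG00000067158) had 316, 478, 299.5 and 444 CPM there and 136, 229.9, 123 and 182 CPM in stromal-like cells, and Col4a3 (ENSMUSG00000079465) 96.4, 139, 76.0 and 117 and 31.1, 54.1, 25.5 and 41.0 CPM, without overlap in both cases. Col4a5 and Col4a6 were highest in epithelial-like cells. Col4a5 (ENSMUSG00000031274) had 164, 218, 153 and 201 CPM there, 79.5, 51.0, 124 and 167 CPM in luteal-like cells and 52.9, 58.9, 71.4 and 80.9 CPM in GC-like cells, where its mean was the highest of any member. Col4a6 (ENSMUSG00000031273) had 91.4, 139.8, 117 and 128 CPM in epithelial-like cells, 2.91 times the mean of the next class, luteal-like cells (17.7, 13.5, 62.3 and 70.5 CPM).

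The 2 genes of each of these pairs lie head to head, which is why the bases between them are shown, with matches to CCAAT, to the GC box GGGCGG or to TATAA in capitals. Col4a3 (chr1:82586921-82722059, plus strand) and Col4a4 (chr1:82448423-82586849, minus strand) start 71 bases apart, and these bases (chr1:82586850-82586920, printed on the strand of Col4a4) hold none of the motifs searched. Col4a5 (chrX:141475385-141689234, plus strand) and Col4a6 (chrX:141165403-141474076, minus strand) start 1308 bases apart. The bases before Col4a5 (chrX:141475169-141475384) and before Col4a6 (chrX:141474077-141474326, minus strand) are the outer parts of that gap.
Col4a3 to Col4a4: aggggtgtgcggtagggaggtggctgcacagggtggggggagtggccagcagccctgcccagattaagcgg
Col4a5: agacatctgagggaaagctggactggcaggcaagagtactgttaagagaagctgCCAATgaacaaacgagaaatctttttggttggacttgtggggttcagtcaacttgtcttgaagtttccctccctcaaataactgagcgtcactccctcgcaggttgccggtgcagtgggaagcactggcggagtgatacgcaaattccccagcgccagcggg
Col4a6: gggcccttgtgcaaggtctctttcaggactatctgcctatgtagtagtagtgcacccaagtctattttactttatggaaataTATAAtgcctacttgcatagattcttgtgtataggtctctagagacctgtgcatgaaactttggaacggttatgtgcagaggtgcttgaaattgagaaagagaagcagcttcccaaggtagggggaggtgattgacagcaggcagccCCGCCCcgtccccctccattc

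In chosen pairs of partners in a molecule or neighbours on a chromosome, levels varied together over 27 clusters of cells. Other pairs were not correlated, so these values do not show that partners or neighbours vary together more than other members. Pearson's r of log2(CPM + 1) was 0.951 for Col4a1 and Col4a2, 0.947 for Col6a1 and Col6a2, 0.919 for Col1a1 and Col1a2, 0.914 for Col3a1 and Col5a2, 0.898 for Col4a3 and Col4a4 and 0.723 for Col4a5 and Col4a6. Within single libraries it ranged from 0.932 to 0.988 for Col4a1 and Col4a2 and from 0.596 to 0.902 for Col4a5 and Col4a6. Col4a1 and Col4a2 overlap by 22 bases head to head, Col6a1 and Col6a2 lie in tandem 85161 bases apart, and Col3a1 and Col5a2 lie tail to tail 24614 bases apart. Col1a1 and Col1a2 lie on chromosomes 11 and 6. The clusters share libraries and depth, and the correlations are descriptions over clusters.

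Type VI collagen forms filaments that tie cells to the fibrils around them. Col6a1 (ENSMUSG00000001119) had 653, 534, 595 and 657 CPM in epithelial-like and 440.3, 491, 521 and 531 CPM in theca-like Enpep cells, and Col6a2 461 ± 51.1 and 358 ± 29.7 CPM. Both were highest in epithelial-like cells in all 4 libraries, without overlap but by small ratios of 1.23 and 1.29. Col6a3, the third chain of the common form, did not follow them. It had 253 ± 51.0 CPM in theca-like Enpep, 246 ± 56.6 CPM in pericyte or smooth muscle-like and 211 ± 40.3 CPM in stromal-like cells, which overlapped. Col6a4 was highest in Myh11 cells with 199, 188, 186 and 213 CPM, though Fosl2cKO 2 reached nearly as much in pericyte or smooth muscle-like cells (108, 67.9, 54.6 and 191 CPM). Col6a6 had 37.0 ± 9.52 CPM in epithelial-like and 26.6 ± 13.4 CPM in luteal-like cells, and Col6a5 16.5 ± 6.45 CPM in stromal-like cells.

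The multiplexins are collagens of the basement membrane zone that carry sugar chains. Col18a1 (ENSMUSG00000001435), whose end is cleaved to endostatin, had 377, 479, 332 and 444 CPM in blood endothelial-like cells, 2.21 times the mean of pericyte or smooth muscle-like cells (175, 189, 218 and 155 CPM) and without overlap. Col15a1, its relative, had the opposite order, with 239.6, 346, 442 and 489 CPM in pericyte or smooth muscle-like and 48.6, 84.2, 70.4 and 128 CPM in blood endothelial-like cells. Transmembrane collagens marked the 2 kinds of endothelium. Col23a1 (ENSMUSG00000063564) had 557, 549, 356 and 191 CPM in lymphatic endothelial-like cells, 19.9 times the mean of the next class, and 5.72, 16.8, 14.8 and 5.71 CPM in blood endothelial-like cells. Col13a1 had 53.4, 61.9, 37.1 and 119 CPM in blood endothelial-like cells, 4.99 times the next class. Col25a1 was found in theca-like Enpep (74.1 ± 24.3 CPM) and theca-like Cyp17a1 cells (61.4 ± 39.5 CPM), and Col17a1, of the plaques that anchor epithelia, had at most 1.91 ± 1.32 CPM in any class.

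**Figure D3:**
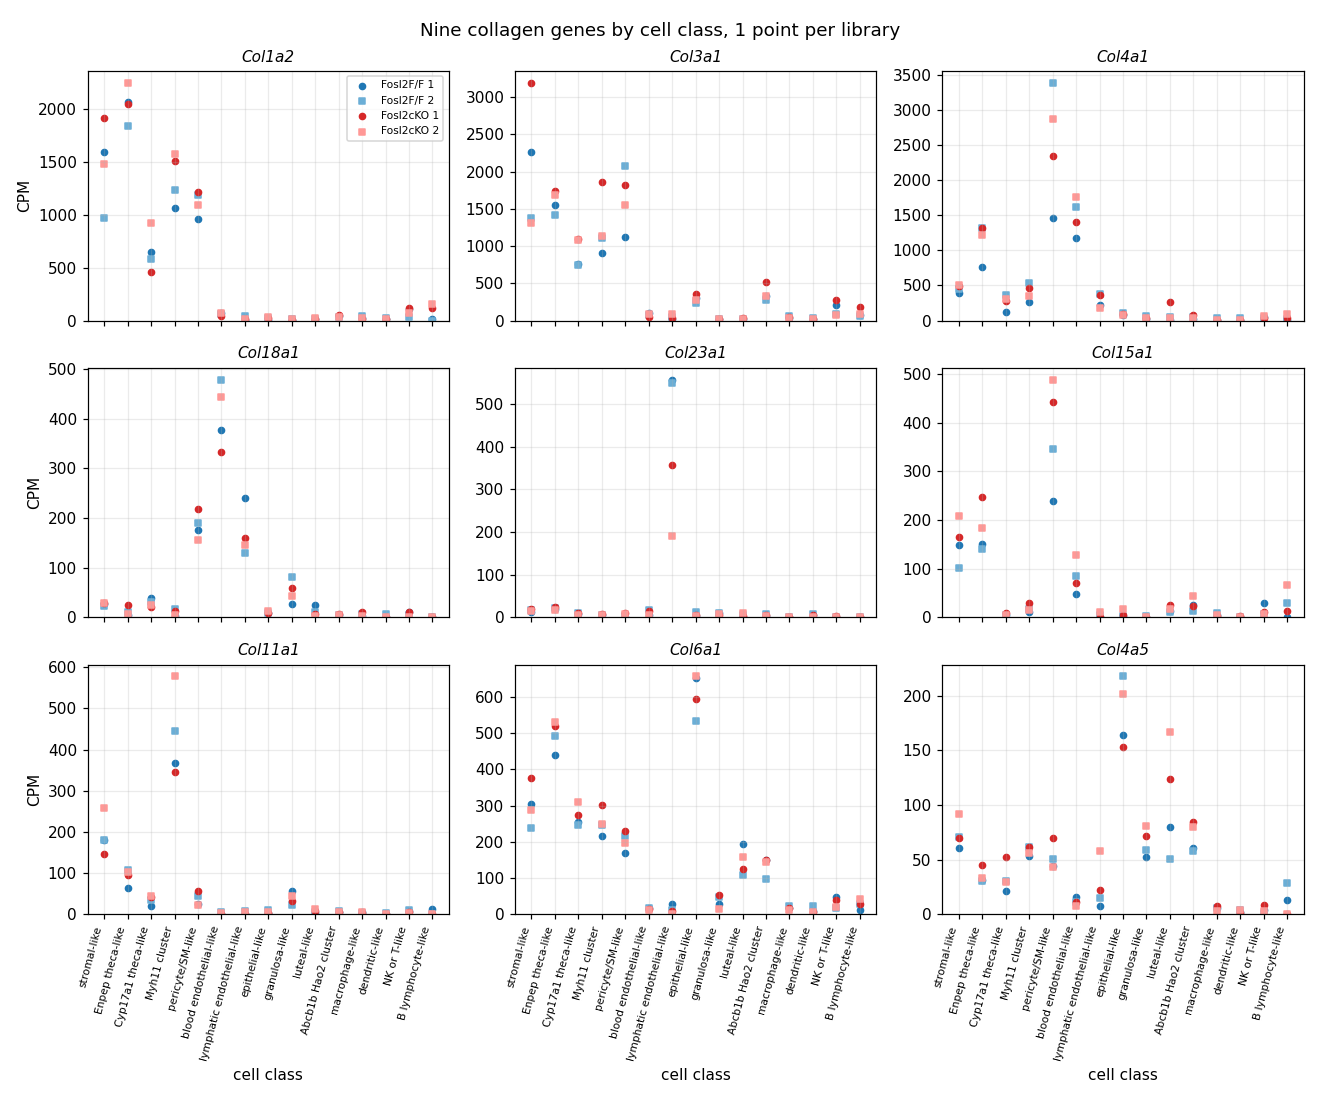
Level in CPM of 9 members in 15 cell classes, with 1 point for each library (Fosl2F/F and Fosl2cKO by colour). The 4 libraries of Col23a1 in lymphatic endothelial-like cells lie between 191 and 557 CPM, and all other classes are below 25 CPM.

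The fibril-associated collagens sit on the surface of fibrils. Col19a1 had 46.5, 23.9, 56.4 and 45.2 CPM in pericyte or smooth muscle-like cells, 13.6 times the mean of the next class. Col14a1 also had its highest level there, 41.6, 129, 84.9 and 38.8 CPM, but reached as much in stromal-like cells of 1 library (11.9, 13.8, 82.6 and 9.23 CPM). Col12a1 and Col16a1, with 129 ± 19.7 and 78.3 ± 13.1 CPM in stromal-like cells, overlapped with Myh11 and theca-like Enpep cells. Col9a2 (ENSMUSG00000028626), a chain of the type IX collagen of cartilage, was the single member highest in GC-like cells, with 66.2, 50.5, 37.0 and 45.2 CPM. B lymphocyte-like cells, from 0 to 66.2 CPM over libraries, overlapped with them. Col20a1 and Col22a1 were highest in Abcb1b Hao2 cells at 10.8 ± 0.861 and 9.82 ± 2.34 CPM. Of the others, Col26a1 had 78.1 ± 15.6 CPM in theca-like Enpep cells and Col8a1, a short-chain collagen, 35.9 ± 14.1 CPM in blood endothelial-like cells. Col8a1 was highest there in 2 libraries only. Col28a1, Col7a1, Col8a2 and Col9a3 stayed below 10 CPM in the mean of each of the 15 classes.

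The stromal-like values held a small part of very high levels. Of the 2 clusters named stromal-like, the smaller (205 cells led by Gsn, Clec3b, C3 and Dpt) had 33187, 13189, 32115 and 14553 CPM of collagen UMIs from 12, 66, 92 and 35 cells. The larger (6125 cells) had 8107, 6042, 8252 and 7005 CPM. Fosl2cKO 1 therefore drew more of its stromal collagen UMIs from the smaller cluster than the other libraries.

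Lymphocytes should lack collagens, so their collagen UMIs were taken as a background level, in which free RNA in droplets and doublets that were not removed cannot be told apart. Levels of the members in GC-like cells were read against B lymphocyte-like and NK or T-like cells of the same libraries. Of 41 members, 10 were above both in every library comparison (Col4a5, Col11a1, Col18a1, Col27a1, Col4a6, Col4a3, Col23a1, Col24a1, Col22a1 and Col7a1), 27 overlapped and 4 were below NK or T-like cells (Col3a1, Col1a2, Col1a1 and Col15a1). Of the 10, Col22a1 and Col7a1 had 0.160 and 0.353 CPM in GC-like cells, and the lymphocytes, with 0 UMIs of both, were too shallow to show such levels. Col9a2 was among the 27. It overlapped with B lymphocyte-like cells (0 to 66.2 CPM) and was above NK or T-like cells (0.903 to 6.32 CPM). Type I and III chains in GC-like cells were not above this background in CPM, with 21.7 ± 4.79 CPM of Col3a1 against 160.4 ± 102 CPM in NK or T-like cells. NK or T-like cells were shallower, so CPM cannot decide whether GC-like cells hold these chains.

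The share of cells with a UMI gave the same picture when every cell was thinned to 2000 UMIs. This left out 4.23% to 6.17% of the cells of 3 libraries and 20.3% of Fosl2F/F 2. Of the NK or T-like cells of Fosl2F/F 2, with a median of 1364 UMIs, it left out most, so their shares rest on the deeper cells. Col1a2 was then detected in 95.0 ± 0.875% of theca-like Enpep cells (97.8% without thinning), and Col3a1 in 81.3 ± 3.23% of stromal-like cells (87.1%). In GC-like cells Col3a1 was found in 4.34 ± 0.880%, below the 7.28 ± 1.09% of NK or T-like cells, so not above the level taken as background. Without thinning GC-like cells had 25.02%, at median depths of 4592 to 19157 UMIs per library against 1364 to 3434 UMIs in NK or T-like cells. Col4a5 was detected in 12.4 ± 2.19% of GC-like and 28.8 ± 4.40% of epithelial-like cells, against 0.530 ± 0.581% of NK or T-like cells. Col11a1 was detected in 44.0 ± 8.64% of Myh11 cells against 1.195 ± 0.879%, and Col23a1 in 37.4 ± 14.1% of lymphatic and 1.65 ± 1.41% of blood endothelial-like cells.

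GC-like cells fell into 6 states named from markers (cumulus, the cells around the oocyte; mural, those lining the follicle wall; mitotic; mitotic-antral; growing follicle with Amh and Cited1; atretic, of degenerating follicles) and 2 further clusters. The first (367 cells) scored highest for markers of luteinizing mural cells, but Cald1 was the only such marker among its leading genes, and it is called by its leading genes Pcdh9 and Rrad, which was decided with the clusters in view. The other (296 cells) had no marker among its leading genes and was not named. Collagen UMIs came to 1158 ± 165 CPM in cumulus-like, 836 ± 121 CPM in atretic-like, 376 ± 92.0 CPM in growing follicle-like, 309 ± 84.7 CPM in mural-like, 268 ± 30.9 CPM in mitotic-like and 217 ± 43.3 CPM in mitotic-antral-like cells. Pcdh9 Rrad cells had 883 ± 139.6 CPM. Cumulus-like cells were above the 4 states from growing follicle to mitotic-antral in every library.

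Cumulus-like cells led for 8 members (5 with doublets kept) with at least 10 CPM and at least 2 times the mean of other states. Col18a1 was the largest, with 239, 265, 318 and 287 CPM, 31.8 times the mean of the other states, while no library of any other state exceeded 32.5 CPM. After thinning, 38.4 ± 3.70% of cumulus-like cells held a Col18a1 UMI, against 1.04 ± 0.534% of mural-like and 0.294 ± 0.382% of NK or T-like cells, and 48.6 ± 5.34% of blood endothelial-like cells. Col24a1, a minor fibrillar chain, had 15.2, 22.8, 17.3 and 17.5 CPM, 10.7 times the other states. The pair Col4a1 and Col4a2 had 68.3, 175, 155 and 105 and 40.0, 118, 94.3 and 64.1 CPM in cumulus-like cells, and overlapped with Pcdh9 Rrad cells. Col6a1, Col6a2 and Col6a3 had 87.3 ± 40.5, 26.6 ± 15.9 and 29.96 ± 7.33 CPM. Col9a2 had 115, 119, 69.8 and 81.9 CPM in cumulus-like cells, against 184, 35.3, 80.0 and 81.1 CPM in atretic-like and 151, 79.3, 29.6 and 55.8 CPM in growing follicle-like cells, and these states cannot be ranked.

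Atretic-like cells led for Col11a1, with 263, 86.5, 154 and 148 CPM (6.03 times the other states), Col4a5 with 123, 91.1, 168 and 161 CPM (2.06 times) and Col6a4 with 53.6, 18.2, 74.7 and 48.6 CPM (5.92 times). Each overlapped with another state. Pcdh9 Rrad cells had a mean of 126 and up to 134 CPM of Col4a5, and a mean of 24.7 and up to 33.9 CPM of Col6a4. The unnamed cluster had a mean of 63.4 and up to 101 CPM of Col11a1. All states held Col4a5, with 113 ± 28.3 CPM in cumulus-like, 48.8 ± 13.4 CPM in mural-like and 33.1 ± 8.79 CPM in mitotic-like cells. Pcdh9 Rrad cells led for the head-to-head pair Col4a4 and Col4a3, with 86.3, 78.6, 50.1 and 66.8 and 62.5, 71.5, 48.9 and 42.9 CPM, and for Col4a6 with 47.6, 59.0, 80.1 and 106 CPM. Col6a6 had 0, 42.9, 60.1 and 42.9 CPM there and at most 1.45 CPM in the mean of another state. Col8a1, Col12a1 and Col5a2 had 18.3 ± 14.9, 19.0 ± 18.6 and 17.1 ± 5.62 CPM in these cells. The unnamed cluster led for Col1a1 (19.7 ± 12.1 CPM) and Col23a1 (18.1 ± 5.75 CPM). Pcdh9 Rrad cells and the unnamed cluster were shallow, with median depths of 2116 to 6683 and 1570 to 4769 UMIs per library.

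**Figure D4:**
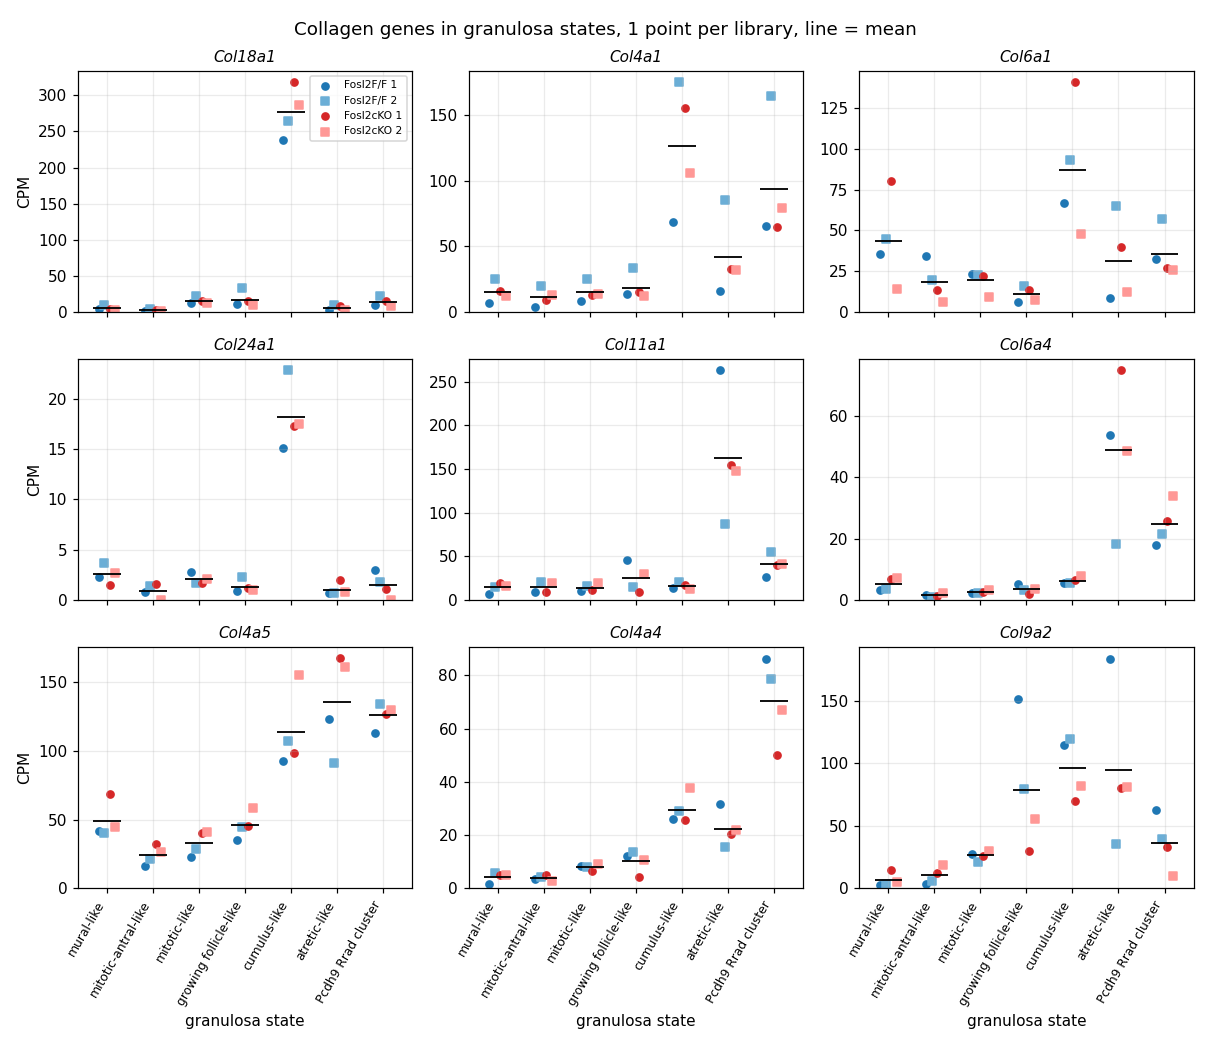
Level in CPM of 9 members in 7 granulosa states, with 1 point for each library and a line for the mean of 4 libraries. Col18a1 lies between 239 and 318 CPM in cumulus-like cells and at or below 32.5 CPM in all other states, whereas Col4a5 was present in every state.

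Conditions were compared with edgeR's quasi-likelihood test on UMIs summed per library, 2 libraries against 2, in 15 classes and 7 GC states, with Benjamini-Hochberg adjustment over all genes of a class. A gene was called at an adjusted p under 0.1 with a log2 fold change over 0.25 in size. Of 500 tests of members in these 22 units, 1 was called (Col1a2 in B lymphocyte-like cells), 0.2% against 0.11% of all 247595 tests over genes, and 44 had an unadjusted p under 0.05, 8.8% against 5.54%. DESeq2 called 3 of 568 (0.528%), against 0.558% of all tests over genes. Summed over the units, edgeR called 2 members without Fosl2F/F 1 (0.364%, against 0.216% of all tests), 8 without Fosl2F/F 2 (1.48% against 1.21%), 11 without Fosl2cKO 1 (2.04% against 1.05%) and 8 without Fosl2cKO 2 (1.47% against 0.999%). Without the filter on low counts it called 19 of 857 (2.22%, against 1.31% of all tests). Members called were 0 in each of the other 21 units, where few genes of any kind were called. Of all genes, 0.226% were called in stromal-like, 0.105% in theca-like Enpep, 0.0562% in theca-like Cyp17a1, 0.155% in Abcb1b Hao2, 0.0156% in luteal-like, 0% in Myh11, 0% in pericyte or smooth muscle-like and 0.116% in epithelial-like cells. In vessel and immune classes 0.275% were called in blood endothelial-like, 0% in lymphatic endothelial-like, 0.228% in macrophage-like, 0% in dendritic-like, 0.34% in NK or T-like and 3.78% in B lymphocyte-like cells. In GC-like cells 0.00579% were called, and in their states 0.0763% in cumulus-like, 0.0152% in mural-like, 0.0077% in atretic-like, 0.00787% in growing follicle-like, 0.00683% in mitotic-like, 0.0181% in mitotic-antral-like and 0.0234% in Pcdh9 Rrad cells. In counts simulated on GC-like cells, the test found 31% of genes changed 2-fold and 79% of those changed 4-fold, and in counts simulated on stromal-like cells 18% and 83%, so that changes of up to 2-fold would mostly be missed. Labels do not say that libraries came from separate mice, and p-values measure the spread between these libraries.

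**Figure D5:**
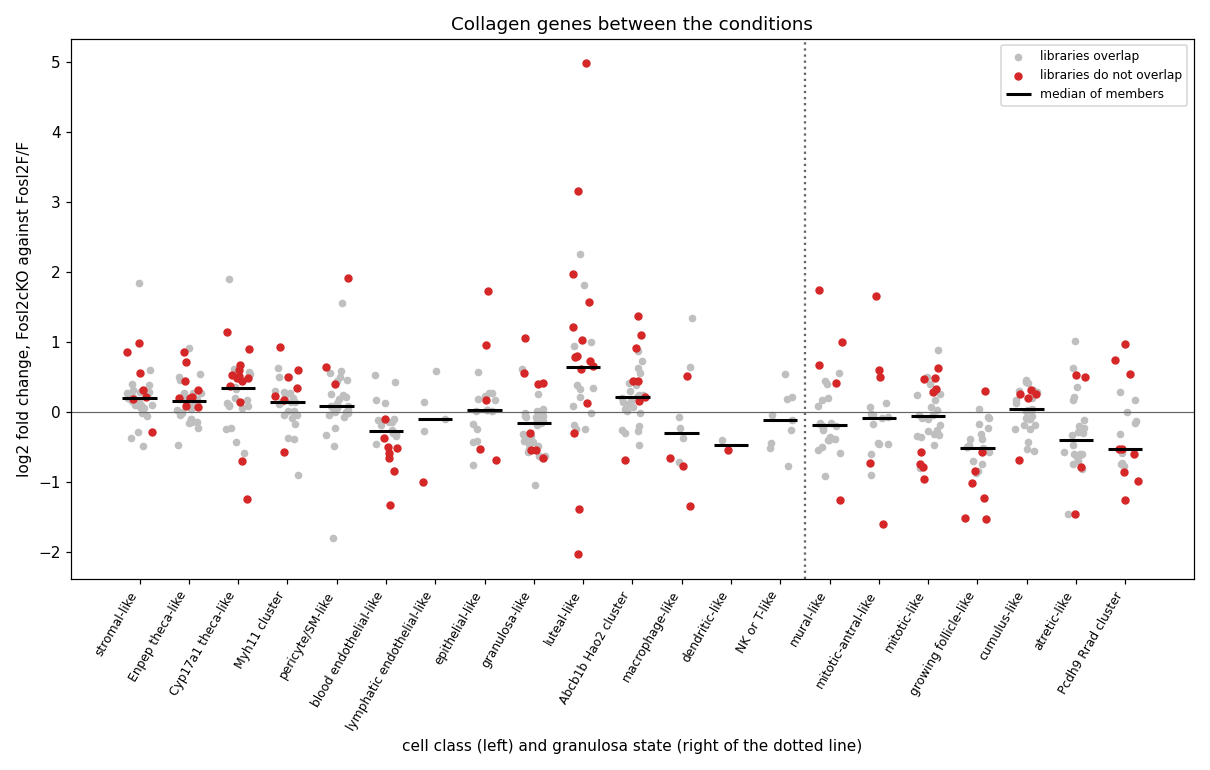
Log2 fold change (libraries labelled Fosl2cKO against Fosl2F/F) of every member tested in each of 21 classes and GC states, with 1 point for each member and a black line for the median. Red points mark members whose libraries did not overlap, the B lymphocyte-like cells with their 1 member are not shown, and medians run from -0.52 in Pcdh9 Rrad cells to 0.64 in luteal-like cells.

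In the classes listed next most members had a higher mean in the libraries labelled Fosl2cKO, by amounts that did not pass the test. This was so for 30 of 36 members tested in stromal-like cells (median log2 fold change 0.20), 28 of 37 in theca-like Enpep (0.16), 24 of 30 in theca-like Cyp17a1 (0.35), 25 of 32 in Abcb1b Hao2 (0.22), 21 of 28 in luteal-like (0.64), 20 of 29 in Myh11 (0.15) and 22 of 29 in pericyte or smooth muscle-like cells (0.09). Luteal-like cells joined 2 clusters whose mix differed between libraries, with 116, 343, 15 and 34 cells in the smaller and 57, 898, 317 and 257 in the larger. The luteal-like median was not taken within these clusters, so it mixes both. The median over all genes tested was between -0.02 and 0.06 in every unit. In blood endothelial-like cells 18 of 22 members were lower (median -0.27), and in GC-like cells 31 of 39 (median -0.14). In the remaining classes 13 of 20 were higher in epithelial-like, 2 of 5 in lymphatic endothelial-like, 3 of 10 in macrophage-like, 3 of 9 in NK or T-like and 0 of 2 in dendritic-like cells. Among the GC states 2 of 25 members were higher in growing follicle-like cells (median -0.51, from -0.85 without Fosl2F/F 1 and -0.72 without Fosl2cKO 2 to -0.12 without Fosl2F/F 2), and 6 of 19 in Pcdh9 Rrad cells (median -0.52, and 0.15 without Fosl2F/F 2). It was 7 of 26 in atretic-like cells (median -0.39, but -0.13 without Fosl2cKO 2, -0.01 without Fosl2F/F 1 and 0.10 without Fosl2F/F 2), 10 of 26 in mural-like (-0.18) and 5 of 17 in mitotic-antral-like cells (-0.08). It was 13 of 30 in mitotic-like (-0.06) and 16 of 28 in cumulus-like cells (0.04). In the last 4 states leaving out 1 library turned the median, which ran from -0.38 to 0.24, -0.61 to 0.50, -0.09 to 0.31 and -0.09 to 0.26, each time highest without Fosl2F/F 2 and lowest without Fosl2cKO 1, Fosl2F/F 1, Fosl2cKO 2 and Fosl2cKO 1. With 1 library left out the median turned in 2 of the 9 classes whose median is given, to 0.10 in GC-like cells without Fosl2F/F 2 and to -0.03 and -0.04 in pericyte or smooth muscle-like cells without Fosl2F/F 1 and Fosl2cKO 1 (0.50 without Fosl2F/F 2). In GC-like cells it was -0.29 without Fosl2F/F 1 and -0.27 without Fosl2cKO 1. Without Fosl2cKO 1 it was 0.07 in stromal-like, 0.07 in theca-like Enpep, 0.09 in Abcb1b Hao2, 0.04 in Myh11 and -0.11 in blood endothelial-like cells. Without Fosl2cKO 2 it was 0.30 in luteal-like, 0.37 in Abcb1b Hao2 and -0.53 in blood endothelial-like cells. Without Fosl2F/F 1 it was 0.03 in Myh11, 0.22 in theca-like Cyp17a1 and 0.41 in Abcb1b Hao2 cells, and without Fosl2F/F 2 it was 0.11 in stromal-like, 0.14 in Abcb1b Hao2, 0.23 in Myh11 and 0.66 in theca-like Cyp17a1 cells. The same 4 libraries gave all classes, so classes are not independent of each other.

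Counts of members whose libraries did not overlap were read against the same count over all genes. In stromal-like cells 6 of 36 members were higher and 1 lower without overlap, against 14% and 14.2% of all genes. In theca-like Enpep cells it was 9 of 37 and 0, against 21.9% and 9.88%, and in theca-like Cyp17a1 cells 11 of 30 and 2, against 20.3% and 10.6%. In luteal-like cells it was 12 of 28 and 3, against 29.4% and 17.9%. In GC-like cells it was 4 of 39 in each direction, against 17% and 14.7%, and in blood endothelial-like cells 0 and 8 of 22, against 14.1% and 15.2%. In growing follicle-like cells it was 1 of 25 higher and 6 lower, against 21.9% and 11.1%. In Pcdh9 Rrad cells it was 3 of 19 and 6, against 19.7% and 14.3%. Macrophage-like cells had 1 of 10 and 3, against 19.2% and 15.7%. Abcb1b Hao2 cells had 7 of 32 and 1, against 17% and 11.5%. Myh11 cells had 6 of 29 and 1, against 18.3% and 10.8%. Pericyte or smooth muscle-like cells had 3 of 29 and 0, against 15.6% in each direction. Stromal-like, theca-like Enpep and GC-like cells were thus near or below the share of all genes for higher members.

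By the largest difference without overlap, Col15a1 stood first in 3 classes around the vessels and follicles. In pericyte or smooth muscle-like cells it had 239.6 and 346 CPM in Fosl2F/F against 442 and 489 CPM in the libraries labelled Fosl2cKO, a log2 fold change of 0.65 (SE 0.26, adjusted p = 1.0). In theca-like Enpep cells it had 151 and 140.4 against 247 and 183 CPM, 0.45 (SE 0.26, adjusted p = 1.0), and in stromal-like cells 148.6 and 101 against 164 and 209 CPM, 0.56 (SE 0.32, adjusted p = 1.0). Both libraries labelled Fosl2cKO were above both controls in each class, and no test passed in edgeR. Within the 2 clusters of stromal-like cells this separation was not seen. The larger had 133.6, 85.6, 111.8 and 199.6 CPM in Fosl2F/F 1, Fosl2F/F 2, Fosl2cKO 1 and Fosl2cKO 2, and the smaller (12, 66, 92 and 35 cells) had 1167, 684.4, 683.6 and 547 CPM, with both libraries labelled Fosl2cKO lowest.

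Col1a1 had a higher mean in some classes and a lower one in others, and the difference between classes was not tested. In theca-like Cyp17a1 cells it had 33.1 and 42.9 CPM in Fosl2F/F against 88.2 and 61.7 CPM in the libraries labelled Fosl2cKO, a log2 fold change of 0.90 (SE 0.30, adjusted p = 0.853). In epithelial-like cells it had 11.98 and 16.2 against 23.8 and 35.2 CPM, 0.96 (SE 0.35, adjusted p = 0.991). It was lower in blood endothelial-like cells, 38.1 and 26.8 against 19.4 and 22.8 CPM with -0.58 (SE 0.32, adjusted p = 1.0), and in macrophage-like cells, 23.7 and 28.1 against 17.0 and 13.9 CPM with -0.77 (SE 0.31, adjusted p = 0.818). With doublets kept the value in macrophage-like cells was 0.27, the opposite direction. Except for the libraries labelled Fosl2cKO in theca-like Cyp17a1 cells, every value in these 4 classes was below the mean of NK or T-like cells (58.4 ± 42.1 CPM), where Col1a1 was read as background. NK or T-like cells were shallower than these classes in every library, with medians of 1364 to 3434 UMIs. CPM at unequal depth cannot decide whether the values are background.

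Other classes gave single members of this kind, none past the test. Col18a1 was lower in theca-like Cyp17a1 cells, 38.4 and 31.6 against 20.2 and 25.02 CPM with -0.69 (SE 0.30, adjusted p = 0.999). Col5a2 was higher in Myh11 cells, 120.5 and 179 against 292 and 184 CPM with 0.60 (SE 0.30, adjusted p = 1.0), and lower in epithelial-like cells, 26.5 and 26.2 against 18.0 and 20.1 CPM with -0.52 (SE 0.32, adjusted p = 1.0). Col23a1, the member that marked lymphatic endothelial-like cells, had 557 and 549 CPM in Fosl2F/F against 356 and 191 CPM in the libraries labelled Fosl2cKO there, a log2 fold change of -0.99 (SE 0.40, adjusted p = 0.879), from 30 to 159 cells per library. Col3a1 in dendritic-like cells had 26.5 and 35.1 against 21.8 and 22.9 CPM, -0.53 (SE 0.39, adjusted p = 0.896), below the level in NK or T-like cells. 

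In luteal-like cells Col4a6 had 17.7 and 13.5 CPM in Fosl2F/F against 62.3 and 70.5 CPM in the libraries labelled Fosl2cKO, a log2 fold change of 1.98 (SE 0.30, adjusted p = 0.246), and Col4a5 79.5 and 51.0 against 124 and 167 CPM, 1.03 (SE 0.35, adjusted p = 0.401). DESeq2 called 2 of the members in this class, where it called 3.36% of all genes, and its adjusted p for Col4a6 was 0.000436. The other was Col18a1, with 25.7 and 10.8 against 6.88 and 2.70 CPM, whose log2 fold change in DESeq2 was -1.996 (adjusted p = 0.0982). Without the filter on low counts edgeR called 7 members, in a fit that called 4.84% of all genes. Col8a1 had the largest log2 fold change of them, 4.96 (SE 0.51, adjusted p = 1.52e-19), and was not called with the filter. Col8a1 and Col8a2, the short-chain collagens, together had 0.570, 1.55, 14.5 and 58.6 CPM. The class held 2 clusters in unequal numbers, with 57, 898, 317 and 257 cells in the larger and 116, 343, 15 and 34 cells in the smaller. Within the larger cluster Col4a6 had 0, 7.5, 54.0 and 62.5 CPM and within the smaller 18.2, 37.1, 205 and 143 CPM, higher in the libraries labelled Fosl2cKO in both. In Fosl2F/F 1 the level of the whole class (17.7 CPM) was close to that of the smaller cluster. The 57 cells of the larger therefore held few of the UMIs, and the 0 CPM is a weak value. Values within clusters are given for Col4a6 only among these members. In Abcb1b Hao2 cells Col4a5 had 60.3 and 57.7 against 84.1 and 80.0 CPM, 0.45 (SE 0.26, adjusted p = 1.0).

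In GCs, the targeted cells, Col4a5 and Col9a2 had the largest differences without overlap and went opposite ways. Col4a5 had 52.9 and 58.9 CPM in Fosl2F/F against 71.4 and 80.9 CPM in the libraries labelled Fosl2cKO, a log2 fold change of 0.42 (SE 0.17, adjusted p = 1.0). Its libraries labelled Fosl2cKO were higher in the mean in 7 of 7 states, all from the same 4 libraries. In mitotic-like cells it had 22.9 and 28.7 against 39.9 and 41.0 CPM, 0.63 (SE 0.19, adjusted p = 0.529), in mitotic-antral-like cells 16.2 and 21.6 against 32.4 and 26.6 CPM, 0.60 (SE 0.25, adjusted p = 0.531), in atretic-like cells 123 and 91.1 against 168 and 161 CPM, 0.53 (SE 0.23, adjusted p = 0.892), in mural-like cells 41.5 and 40.1 against 68.7 and 45.0 CPM, 0.42 (SE 0.25, adjusted p = 0.999), and in growing follicle-like cells 35.03 and 44.7 against 45.4 and 58.5 CPM, 0.31 (SE 0.23, adjusted p = 0.999).

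Col9a2 had 66.2 and 50.5 CPM in Fosl2F/F against 37.0 and 45.2 CPM in the libraries labelled Fosl2cKO in GC-like cells, a log2 fold change of -0.54 (SE 0.23, adjusted p = 1.0). Col9a2 overlapped with B lymphocyte-like cells at these levels. In growing follicle-like cells it had 151 and 79.3 against 29.6 and 55.8 CPM, -1.52 (SE 0.40, adjusted p = 0.544), where DESeq2 called it with an adjusted p of 0.0229 in a fit that called 0.58% of all genes. In cumulus-like cells it had 115 and 119 against 69.8 and 81.9 CPM, -0.68 (SE 0.20, adjusted p = 0.586), and in Pcdh9 Rrad cells 62.5 and 39.3 against 33.4 and 9.97 CPM, -1.25 (SE 0.50, adjusted p = 0.822). It was higher in mitotic-antral-like cells, 3.75 and 6.28 against 12.6 and 19.0 CPM with 1.66 (SE 0.40, adjusted p = 0.346), and in mural-like cells, 2.52 and 3.22 against 14.4 and 5.11 CPM with 1.74 (SE 0.52, adjusted p = 0.744), at far lower levels. Col27a1 was lower in atretic-like cells, 59.3 and 47.6 against 33.1 and 32.9 CPM with -0.78 (SE 0.21, adjusted p = 0.892), and higher in cumulus-like cells, 48.7 and 47.4 against 66.0 and 53.9 CPM with 0.26 (SE 0.20, adjusted p = 1.0). Col6a6 in Pcdh9 Rrad cells had 0 and 42.9 against 60.1 and 42.9 CPM, 0.98 (SE 0.62, adjusted p = 0.971). Col18a1 in cumulus-like cells had 239 and 265 against 318 and 287 CPM, 0.21 (SE 0.20, adjusted p = 1.0).

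The effect of the condition in GC-like cells was also set against that in stromal-like cells, by limma on the differences within each library. No member differed at an adjusted p under 0.1, nor did any of the 13876 genes tested (0%), of which 564 had an unadjusted p under 0.05. Col26a1 had the smallest unadjusted p of the members (difference of -0.81, SE 0.22, adjusted p = 1.0). Its mean in GC-like cells was only 0.481 CPM, below that in NK or T-like cells (3.12 CPM).

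In B lymphocyte-like cells Col1a2 was the only member tested. It had 13.2 and 0 CPM in Fosl2F/F against 123 and 158 CPM in the libraries labelled Fosl2cKO, a log2 fold change of 3.49 (SE 0.90, adjusted p = 0.0387) in edgeR, from 24 to 49 cells per library. These were 2, 0, 9 and 19 UMIs, so that it passed the filter on low counts only through the libraries labelled Fosl2cKO, where it was high, and the fitted fold change depends on the prior count. From the summed UMIs the ratio was 13.4, with an exact 95% interval of 3.38 to 116.2 that covers counting error only. The call was lost in DESeq2, with collagen genes among the clustering features and without Fosl2F/F 1 or Fosl2F/F 2, and Col1a2 was not tested without Fosl2cKO 2. With doublets kept the log2 fold change was -0.37. A further 2 genes, of the list of genes that fold and bind collagens, were called in this class. Dcn, decorin, which coats fibrils, had 19.9 and 115 against 858 and 33.2 CPM, 3.19 (SE 0.93, adjusted p = 0.0711), and Serpinh1, the collagen chaperone, 358 and 289 against 95.3 and 133 CPM, -1.60 (SE 0.40, adjusted p = 0.0341). Both calls were lost in DESeq2, with doublets kept and without Fosl2F/F 1 or Fosl2F/F 2. That of Dcn, which rested on Fosl2cKO 1 and was not tested without it, was also lost under 5% mitochondrial UMIs and with collagen genes among the features, and that of Serpinh1 without filterByExpr and without Fosl2cKO 1 or Fosl2cKO 2. Dcn and Col1a2 are both transcripts of the stroma and theca, and their part as free RNA was not tested.

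Genes that fold, process, cross-link and bind collagens were compared with the same fits, as a list of 45. Dcn, Sparc and Serpinh1 were the highest of them in stromal-like cells, with 2078 ± 478, 1950.3 ± 643 and 1030.3 ± 345 CPM. Of 683 tests in the 22 units, 2 were called in edgeR, those in B lymphocyte-like cells, and 82 had an unadjusted p under 0.05 (12.01%, against 5.54% of all tests over genes). The 2 calls are 0.293% of the tests, against 0.11%. DESeq2 called 7 of 755 (0.927%, against 0.558%). In stromal-like cells 31 of 41 list genes tested were higher in the libraries labelled Fosl2cKO and 0 passed, and in GC-like cells 17 of 41 were higher and 0 passed. Crtap, a partner of the prolyl 3-hydroxylase P3h1, was picked with its values in view. It had 35.9 and 27.3 CPM in Fosl2F/F against 59.3 and 79.0 CPM in the libraries labelled Fosl2cKO in stromal-like cells, a log2 fold change of 1.11 (SE 0.31, adjusted p = 0.273), and in GC-like cells 20.8 and 16.6 against 29.4 and 45.0 CPM, 0.96 (SE 0.27, adjusted p = 0.926). Its adjusted p in edgeR was between 0.273 and 1.0 over classes. It was called in 10 units without the filter on low counts, stromal-like (adjusted p = 0.0607) and GC-like cells (0.0794) among them, and in 10 units without Fosl2cKO 1, again with stromal-like (0.0576) and GC-like cells (0.0883). In Abcb1b Hao2 cells it was called without Fosl2F/F 1 (0.00529) and with the replicate number as a block (0.0417), and DESeq2 called it in mitotic-like cells (0.0704). All classes came from the same 4 libraries.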

How the data were processed

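The deposited files hold counts of UMIs per gene and cell barcode as whole numbers, which the authors made by aligning reads to GRCm38 (mm10) with Cell Ranger (the file headers name version 7.1.0; the submitters' processing notes also name Seurat 4.1.0). It is not stated in the sources used here whether the removal of background RNA described in the methods is in these counts. The library totals were 120327227 to 148836173 UMIs, and 0 columns were left out. Members, lists and tests were chosen with earlier results of these data known.

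A barcode counted as a cell from 500 genes and above 1000 UMIs, if mitochondrial genes held less than 10% and hemoglobin genes less than 0.1% of them. Doublets were removed by Scrublet score (scanpy 1.11.5) at 0.8% per 1000 cells of a library. Libraries were normalized with sctransform 0.4.2 and integrated with Seurat 5.3.0 (3000 features, 30 dimensions, resolution 0.8 and 0.5 for GC-like cells). Collagen genes, 29 of which would have been features, were left out of features and markers. A cluster was named for a class at a marker score of at least 0.2, a lead of 0.1 and 3 or more markers that reached 0.25 of their maximum over clusters. Theca-like clusters were split at a relative Cyp17a1 level of 0.25, and the Abcb1b Hao2 and Myh11 clusters were set apart at relative levels of 0.5 of Hao2 and Myh11, limits set after the clusters had been seen.

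UMIs were summed per class and library, for classes with 20 cells or more in all 4 libraries. Levels are CPM without further scaling. Conditions were compared with edgeR 4.0.16 (filterByExpr, TMM, quasi-likelihood test, Benjamini-Hochberg adjustment over all genes of a class), and the difference between classes with limma 3.58.1. Alternatives were DESeq2 1.42.0, its size factors, no filterByExpr, a replicate block, each library left out, another threshold, stricter cell filters, doublets kept, collagen genes among the features, and coarser or finer clusters, with the larger stromal-like cluster alone as 1 alternative chosen after seeing the data. In simulated counts of 17257 genes for GC-like cells edgeR made 120 calls, 10 of them false, and for stromal-like cells (14149 genes) 106 calls, 5 of them false. SDs and intervals between libraries cover these libraries only, and with 2 libraries a group precision is limited.

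Members named with values are the 3 highest of each class or GC state, those of at least 10 CPM that lead a state by 2 times or lead a class, those called, and the largest rise and fall among members of at least 20 CPM without overlap. Some others, such as Col17a1, Col22a1 and Col7a1, are named outside this rule. Of the list of 45 other genes, those called and the 3 highest in stromal-like cells are named, with Crtap, which was picked with its values in view. Coordinates of genes and the distances between them are from GENCODE M21, and bases before gene starts are from RefSeq on GRCm38.p6.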

Additional observations from a re-analysis of the deposited data

Results flagged for a closer look

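In 8 members with a mean of at least 20 CPM in both groups of cells, B lymphocyte-like cells aside, both libraries labelled Fosl2cKO lay above both controls in 1 group of cells and below both in another. The difference between the groups was not tested in any of them, and no single effect passed edgeR's test. Of all 9839 genes at this level in at least 2 groups, 3619 (36.8%) lay so, against 8 of 28 members (28.6%), which reached it in fewer groups (median 7 against 18). In the 21 groups 14% to 29.4% of all genes tested were higher without overlap and 8.49% to 18.5% lower. Log2 fold changes were 0.21 in cumulus-like and -0.69 in theca-like Cyp17a1 cells for Col18a1, and 0.51 in mitotic-antral-like and -0.78 in atretic-like cells for Col27a1. For the fibrillar chains they were 0.96 in epithelial-like and -0.77 in macrophage-like cells for Col1a1, 0.35 in Myh11 and -0.65 in macrophage-like cells for Col1a2, 0.50 in Myh11 and -0.53 in dendritic-like cells for Col3a1, and 0.60 in Myh11 and -0.52 in epithelial-like cells for Col5a2. They were 0.32 in theca-like Enpep and -0.52 in Pcdh9 Rrad cells for Col4a4, and 0.18 in Myh11 and -0.86 in Pcdh9 Rrad cells for Col6a1. Means of Col1a1, Col1a2 and Col3a1 in macrophage-like and dendritic-like cells (13.0 to 47.6 CPM), and of Col1a1 in epithelial-like cells (21.8 CPM), were below those in NK or T-like cells (58.4 to 160.4 CPM).

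Oocyte-like cells (31, 127, 24 and 19 cells) entered no comparison, and members with at least 20 CPM and a higher mean there than in any class compared were Col25a1, Col6a6, Col6a5 and Col28a1. Col25a1, a transmembrane collagen, had 157 CPM (267, 137, 86.2 and 138 CPM in the libraries) against 74.1 CPM in theca-like Enpep cells. Col6a6 had 83.9 CPM against 37.0 CPM in epithelial-like cells, with every library higher. Col6a5 and Col28a1 had 23.2 and 25.4 CPM, from 2 to 23 and 1 to 28 UMIs a library.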

How the results depend on the processing

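With 2 libraries a condition and 18% to 31% of simulated 2-fold changes found, a member not called is not shown to be unchanged. In classes of few cells (24 to 49 B lymphocyte-like cells a library) single UMIs move a level. Of the values that answer a comparison, 807 recomputed under an alternative were labelled the same and 111 moved. Many are counts of calls, which were the same if equal or of similar size, also where none was called. Means were the same within their SD over libraries. Leaving out a single library cannot move a mean that far, so those cases could not have moved. Single genes kept their direction and whether they were called in 411 cases. They fell below the threshold in 18, passed it in 7 and reversed in 2. Where a result changed, the cause was not tested.

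Without filterByExpr more members were called (2.22% of their tests, against 1.31% of all tests), 7 in luteal-like (where 4.84% of all genes were called), 2 in pericyte or smooth muscle-like, growing follicle-like and mitotic-antral-like cells, and 1 in Abcb1b Hao2, macrophage-like, stromal-like, theca-like Cyp17a1 and mural-like cells. In these classes other than luteal-like, 0.516% to 2.71% of all genes were called. DESeq2 called 2 members in luteal-like (3.36% of all genes), 1 in growing follicle-like (0.58%) and 0 in B lymphocyte-like cells. In B lymphocyte-like cells 0 members were also called with doublets kept or with collagen genes among the features. Of the other collagen pathway genes, no filterByExpr gave (3.23% of their tests) 8 calls in luteal-like, 6 in mitotic-like, 3 in mitotic-antral-like, 2 in atretic-like and mural-like, and 1 in Abcb1b Hao2, Myh11, epithelial-like, granulosa-like, stromal-like, theca-like Cyp17a1, theca-like Enpep and cumulus-like cells. In these classes 0.663% to 4.84% of all genes were called. DESeq2 gave 2 in granulosa-like (1.13% of all genes), luteal-like (3.36%) and mitotic-like (1.51%), 1 in mitotic-antral-like (0.95%) and 0 in B lymphocyte-like cells. In the last, pathway calls were 1 at an adjusted p under 0.05 (2.21% of all genes) and 1 under 5% mitochondrial UMIs (2.43%). They were 1 with collagen genes among the features (1.44%) and 0 with doublets kept.

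Whether the replicate numbers pair the libraries is not known, and the labels name no shared batch. The differences between replicates of each group correlated over genes at -0.28 to 0.11 in the classes. These values cannot decide whether libraries were processed in pairs. Taking the number as a replicate block gave 1 pathway gene in Abcb1b Hao2 cells and no other change in the calls of members.

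Leaving out 1 library moved member calls between 0 and 4 in Abcb1b Hao2 (4 without Fosl2F/F 2, with 4.17% of all genes) and growing follicle-like cells (4 without Fosl2cKO 2, with 2.08%), 0 and 2 in mitotic-antral-like cells (2 without Fosl2F/F 2 or Fosl2cKO 1, with 3.05% and 2.51%), and 0 and 1 in B lymphocyte-like, Pcdh9 Rrad, cumulus-like, mitotic-like, mural-like, blood endothelial-like, luteal-like, macrophage-like, pericyte or smooth muscle-like, stromal-like, theca-like Cyp17a1 and theca-like Enpep cells. Each of these fits left 1 library in a group, so its calls are not read as changes. The share of all genes called varied widely over the classes with 0 and 1. It is not given beside them, so those calls cannot be set against it. Pathway calls also moved in some classes, most in mitotic-antral-like cells. They are not listed, because these fits too left 1 library in a group. Members led by atretic-like cells numbered 2 to 5 (5 without Fosl2F/F 2), and 5 with coarser clusters or under 5% mitochondrial UMIs, against 3.

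With doublets kept, summed collagen was 1203 CPM in Abcb1b Hao2, 1807 in B lymphocyte-like, 1595 in NK or T-like, 623 in dendritic-like, 2160.0 in epithelial-like, 686 in granulosa-like and 863 CPM in macrophage-like cells, Col3a1 was found in 6.75% of GC-like cells, and cumulus-like cells led for 5 members in place of 8. The log2 fold change of Col1a1 in macrophage-like cells became 0.27 and that of Col1a2 in B lymphocyte-like cells -0.37. The same class stayed highest for 34 of 41 members with doublets kept, 34 with collagen genes among the features and 36 with finer clusters, and for 39 to 41 under the other alternatives. Without thinning, shares of cells were 87.1% for Col3a1 in stromal-like, 97.8% for Col1a2 in theca-like Enpep, 71.7% for Col18a1 in blood endothelial-like, 74.4% for Col18a1 in cumulus-like, 53.5% for Col23a1 in lymphatic endothelial-like, 62.3% for Col11a1 in Myh11, 45.8% for Col4a5 in granulosa-like and 25.02% for Col3a1 in granulosa-like cells. Spearman's rho was 0.977 for Col4a1 and Col4a2, 0.896 for Col6a1 and Col6a2 and 0.860 for Col3a1 and Col5a2. With collagen genes among the features Pearson's r was 0.995 for Col4a1 and Col4a2 and 0.881 for Col4a5 and Col4a6.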
